A study of Mus musculus with 12 samples.

Results

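The 10 genes described here encode the 3 enzymes of serine synthesis (Phgdh, Psat1 and Psph), 3 enzymes of one-carbon metabolism (Shmt1, Shmt2 and Mthfd2) and 4 genes known as targets of the response to amino acid shortage (Asns, Chac1, Slc7a11 and Aldh18a1). They were taken as the array rows whose only gene symbol was one of these names, and make up 10 of the 22180 genes measured. Where a gene had several rows, as Slc7a11 did, the row was chosen by its mean brightness over the arrays. The gene names themselves were chosen with earlier results of these data known, so the ranks of members below are descriptive. All 10 were found. RNA from the cerebellum of single mice was measured on 12 Affymetrix whole-transcript arrays. KO_female and KO_male mice were Ciz1-/-, and WT_female and WT_male mice were their controls, with 3 arrays in each of the 4 groups. No other allele or treatment is labelled. The controls are wild type by their source names and Ciz1+/+ by the protocol, but their genotype field reads Ciz1+/-. The mice were 10 months old by the protocol and 6 to 10 months by the series design. How the allele was made and the strain of the mice are not given in the labels. Replicate numbers follow the order of the records and only name an array.

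Levels are log2 of the RMA intensity, and a difference is knockout minus wild type on that scale. Ciz1, which encodes a nuclear matrix protein, was at 7.13 ± 0.18 in knockout arrays and 8.76 ± 0.08 in wild-type arrays (SD, n = 6 each), a difference of -1.64 (SE 0.07; limma adjusted p = 1.42e-06). The granule cell genes Gabra6, Cbln1, Cbln3 and Zic1 and the Purkinje cell genes Calb1 and Car8 lay at percentile 99.4 of brightness or higher in every array. The other granule and Purkinje cell genes checked were lower. Their lowest percentile over the arrays was 98.4 for Fat2, 75.5 for Neurod1 and 96.1 for Pvalb. The forebrain gene Emx1 lay at percentile 26.2 on average. The 3 KO_female arrays stood apart on the principal component with the most variance (16%), at 10.72 to 16.01, against -12.18 to 3.54 in the other 9 arrays. The adjusted p passed 0.05 for 5 of 22180 genes (0.0225%) over both sexes, for 5 (0.0225%) in females and for 5 (0.0225%) in males.

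Cells build serine from a glycolysis intermediate: Phgdh oxidises 3-phosphoglycerate, Psat1 moves an amino group from glutamate onto the product, and Psph removes the phosphate. Serine then feeds glycine, the folate cycle, glutathione and the synthesis of membrane lipids, and in brain it is also the source of the NMDA receptor co-agonist D-serine. In the adult brain the pathway is known mainly from astrocytes and related glia. When amino acids run short or the endoplasmic reticulum is stressed, phosphorylation of eIF2 raises the translation of the transcription factor Atf4. Atf4 binds C/EBP-ATF response elements and is known to raise transcription of many of these genes, Asns, Chac1, Psat1, Mthfd2 and Slc7a11 among them.

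Promoters were searched for the core of that element, TGATGNAA, on both strands. In RefSeq promoters of GRCm38.p6, which run from 250 bases before to 50 bases after a gene's start, it was found in 3 of the 10 members, Asns, Chac1 and Slc7a11. It was found in 1304 of all 32851 promoters (3.97%). The windows below lie within the 220 bases before the start, are printed 5′ to 3′ on the strand of the gene, and have the match in capitals; TTGCATCA is a match on the opposite strand.
Asns, chr6:7693210-7693279, minus strand: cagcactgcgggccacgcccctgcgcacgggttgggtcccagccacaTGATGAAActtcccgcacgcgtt
Chac1, chr2:119351022-119351091, plus strand: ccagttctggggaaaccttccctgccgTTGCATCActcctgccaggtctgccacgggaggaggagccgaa
Slc7a11, chr3:50443634-50443703, minus strand: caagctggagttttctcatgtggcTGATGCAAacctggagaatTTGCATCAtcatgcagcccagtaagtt
Asns and Chac1 held 1 match each, and Slc7a11 held 2 matches that face each other. A match is only a run of letters, and its absence from the other 7 windows says nothing about Atf4 at those genes.

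Psat1 had the genotype difference described below and Mthfd2 the closest match to Asns across arrays, and both are shown for another common promoter motif, CCAAT, which NF-Y binds. It was found in 7 of the 10 members and in 12289 of all 32851 promoters (37.4%). The 10 members had 11 promoters, and a member was counted if any promoter of it matched. The other listed Psat1 promoter, not shown, held 0 matches of either motif. Capitals mark CCAAT or its reverse ATTGG, and the windows lie within 110 bases of the start.
Psat1, chr19:15925060-15925129, minus strand: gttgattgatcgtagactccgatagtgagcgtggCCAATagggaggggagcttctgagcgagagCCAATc
Mthfd2, chr6:83317615-83317714, minus strand: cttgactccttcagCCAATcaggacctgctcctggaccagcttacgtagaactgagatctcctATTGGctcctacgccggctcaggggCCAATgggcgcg
The Psat1 window held 2 matches and the Mthfd2 window held 3.

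Psat1, the aminotransferase, was the member whose level differed most between genotypes. Its level was 8.15, 8.18 and 8.04 in KO_female arrays, against 8.48, 8.59 and 8.64 in WT_female arrays. In males it was 8.47, 8.39 and 8.30 in KO_male arrays, against 8.48, 8.63 and 8.76 in WT_male arrays. All 6 knockout arrays lay below all 6 wild-type arrays, by a margin of only 0.0093 between KO_male replicate 1 and the lowest wild-type array. Over the 22180 genes, 51 (0.23%) had every knockout array below every wild-type array, and 1 of the 10 members, Psat1, was among them. Within females the same order held for 7.41% of genes and within males for 5.64%, in each case with Psat1 as the 1 member.

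Over both sexes Psat1 averaged 8.26 ± 0.16 in knockout and 8.60 ± 0.11 in wild type (SD, n = 6 each). The difference of -0.34 (SE 0.06, 95% interval -0.47 to -0.22) is 1.27-fold lower in knockout. Its unadjusted p in limma was 8.32e-05, smaller in 11 other genes, and 0.257% of genes had a lower difference. After adjustment over all genes it did not pass the threshold of 0.05 (limma adjusted p = 0.141). It did pass when the prior spread was allowed to follow brightness (adjusted p = 0.0189) or when only genes above the median brightness were tested (0.0239).

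By sex, the Psat1 difference was -0.45 in females (SE 0.08, 95% interval -0.63 to -0.27; limma adjusted p = 0.169), or 1.36-fold lower in KO_female. In males it was -0.24 (SE 0.08, 95% interval -0.42 to -0.06; limma adjusted p = 0.874), or 1.18-fold lower in KO_male. The female difference minus the male difference was -0.21, with a 95% interval of -0.46 to 0.04 that spans 0 (limma adjusted p = 0.998). The sexes were therefore not shown to differ in this gene. The male difference was -0.17 without WT_male replicate 3 and -0.31 without WT_male replicate 1.

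In whole tissue, fewer cells of a type and less RNA per cell cannot be told apart. Oligodendrocyte markers were lower in KO_female than in WT_female arrays. The mean log2 level of the 14 measured markers of 16 listed was 8.59 to 8.72 in KO_female and 8.96 to 9.10 in WT_female arrays. In males it was 8.64 to 9.04 in KO_male and 8.89 to 9.08 in WT_male arrays, which overlapped. Over both sexes their median difference was -0.26, and 12 of 14 were lower at an unadjusted p under 0.05 (4.87% of all genes were). In females 10 of 14 were lower at an unadjusted limma p under 0.05 (3.98% of all genes), and in males 0 were (2.8%). Over both sexes 1 of the 14 passed the adjusted threshold, Opalin, at -0.45 (SE 0.06; limma adjusted p = 0.0370). In females 1 passed (lowest limma adjusted p = 0.0144), and in males 0 did. With the mean level of these markers as a covariate the Psat1 difference was -0.30 (SE 0.10, limma adjusted p = 0.594). The 15 Bergmann glia and astrocyte markers averaged 9.74 to 9.79 in KO_female and 9.78 to 9.84 in WT_female arrays, which overlapped. In males they averaged 9.75 to 9.85 in KO_male and 9.87 to 9.90 in WT_male arrays, which did not overlap. At an unadjusted limma p under 0.05, 3 of 15 were lower over both sexes (4.87% of all genes). In females 0 were lower (3.98%), and in males 4 were (2.8%). With the mean level of the astrocyte markers as a covariate the Psat1 difference was -0.35 (SE 0.10; limma adjusted p = 0.609). The part of either cell type in the Psat1 difference was not tested beyond these values.

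Over the 12 arrays, the 5 genes most like Psat1 among 11082 genes above the median brightness were Erbin (r = 0.96), Mal (0.94), Phlpp1 (0.94), Oxct1 (0.94) and Golm2 (0.93). Mal, a myelin membrane protein, is one of the listed oligodendrocyte markers. These correlations include the separation of the genotypes and are given as a description.

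**Figure D1:**
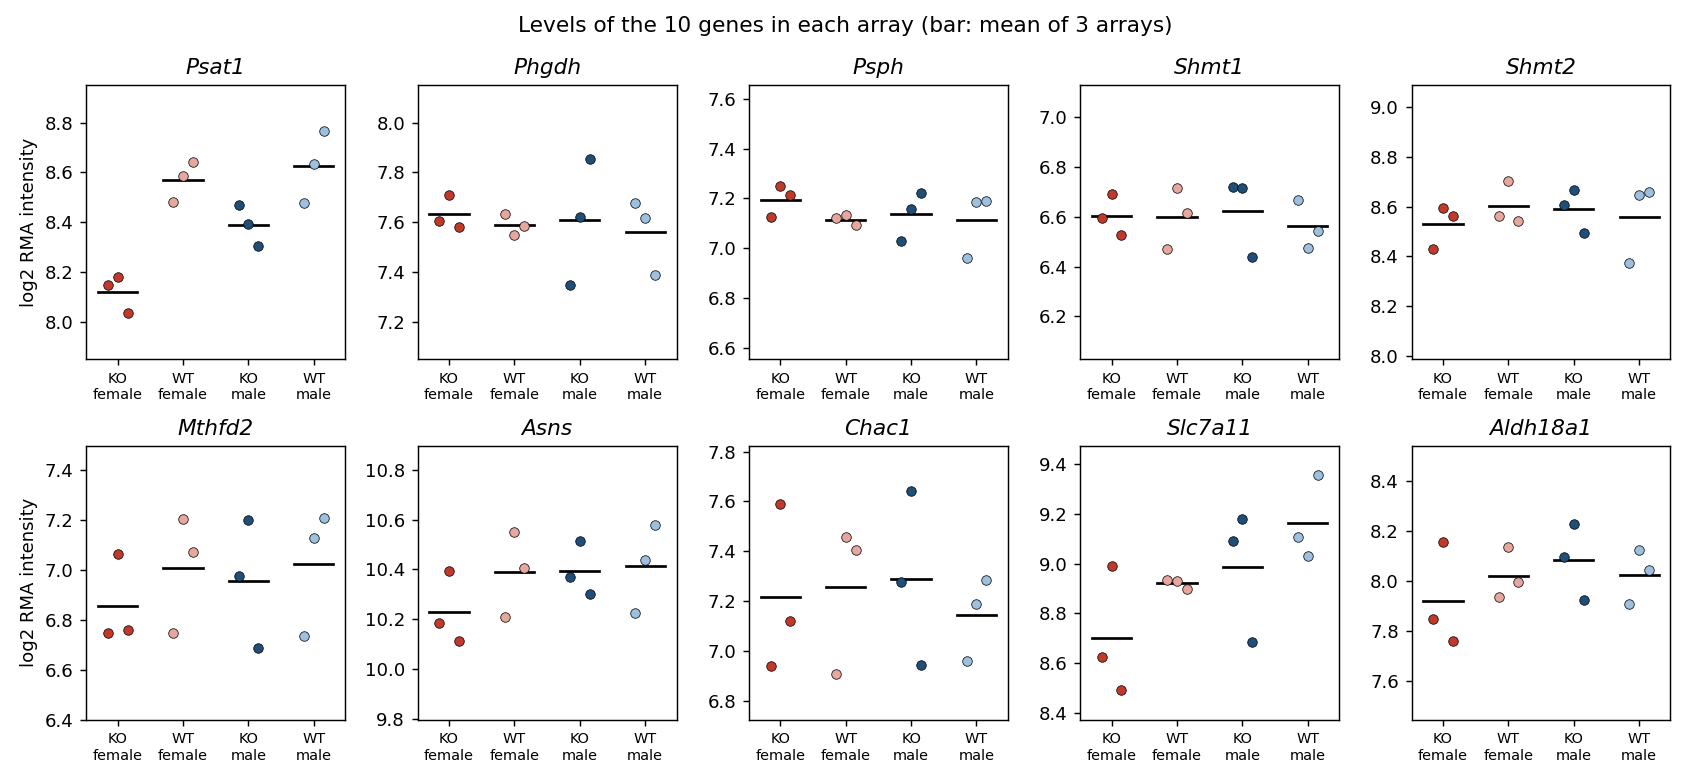
Log2 RMA intensity of each of the 10 genes in KO_female, WT_female, KO_male and WT_male arrays, 1 point per array, with a bar at the mean of 3 arrays; the axes differ in position but share their length. Psat1 is the panel in which the 6 knockout arrays lie below the 6 wild-type arrays, while Mthfd2, Asns, Chac1 and Aldh18a1 are spread widely inside every group.

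The other serine synthesis enzymes showed no such order. Phgdh, the dehydrogenase that opens the pathway, was at 7.61, 7.71 and 7.58 in KO_female and 7.63, 7.55 and 7.58 in WT_female arrays. It was at 7.35, 7.62 and 7.85 in KO_male and 7.68, 7.62 and 7.39 in WT_male arrays. KO_male held both the lowest and the highest of the 12 arrays, and the genotypes overlapped. Its difference over both sexes was 0.04 (SE 0.08, 95% interval -0.13 to 0.22; limma adjusted p = 0.904).

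Psph, the phosphatase that releases serine, was at 7.12, 7.25 and 7.21 in KO_female and 7.12, 7.13 and 7.09 in WT_female arrays, and at 7.03, 7.16 and 7.22 in KO_male and 6.96, 7.19 and 7.19 in WT_male arrays. Its difference was 0.05 (SE 0.05, 95% interval -0.07 to 0.17; limma adjusted p = 0.801). The intervals of Phgdh and Psph do not reach the Psat1 estimate of -0.34. Across arrays, the correlation of Psat1 with Phgdh (r = -0.42, permutation p adjusted over 45 pairs = 0.303; rho = -0.32, 0.436) and with Psph (r = -0.30, 0.452; rho = -0.32, 0.436) did not pass.

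The 3 one-carbon enzymes overlapped between genotypes. Shmt1, the cytosolic enzyme that splits serine into glycine and a one-carbon unit, was at 6.53 to 6.69 in KO_female and 6.47 to 6.71 in WT_female arrays, and at 6.44 to 6.72 in KO_male and 6.47 to 6.67 in WT_male arrays. Its difference was 0.03 (SE 0.07, 95% interval -0.11 to 0.18; limma adjusted p = 0.918). Shmt2, its mitochondrial counterpart, was at 8.43, 8.59 and 8.56 in KO_female and 8.56, 8.70 and 8.54 in WT_female arrays. It was at 8.61, 8.67 and 8.49 in KO_male and 8.37, 8.65 and 8.66 in WT_male arrays, a difference over both sexes of -0.02 (SE 0.06, 95% interval -0.16 to 0.12; limma adjusted p = 0.949).

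Mthfd2, the mitochondrial folate enzyme that oxidises the one-carbon unit, was at 6.75, 7.07 and 6.76 in KO_female and 6.75, 7.20 and 7.07 in WT_female arrays. In males it was at 6.98, 7.20 and 6.69 in KO_male and 6.74, 7.13 and 7.21 in WT_male arrays. Each group held a low array near 6.7 and a high array above 7.0, so the spread inside groups exceeded the difference of -0.11 (SE 0.12, 95% interval -0.36 to 0.15; limma adjusted p = 0.806).

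Among the amino acid stress genes, Asns, which makes asparagine from aspartate, was at 10.19, 10.39 and 10.11 in KO_female and 10.21, 10.55 and 10.41 in WT_female arrays. It was at 10.37, 10.51 and 10.30 in KO_male and 10.22, 10.44 and 10.58 in WT_male arrays. The difference was -0.09 (SE 0.08, 95% interval -0.26 to 0.09; limma adjusted p = 0.766). Asns was the brightest member relative to all genes, at percentile 96.4.

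Chac1, which breaks down glutathione, was at 6.94, 7.59 and 7.12 in KO_female and 6.91, 7.46 and 7.40 in WT_female arrays. It was at 7.28, 7.64 and 6.94 in KO_male and 6.96, 7.19 and 7.28 in WT_male arrays. The 12 arrays spanned 1.66-fold, with the highest and lowest knockout arrays on either side of most controls. The difference over both sexes was 0.05 (SE 0.15, 95% interval -0.27 to 0.37; limma adjusted p = 0.949), the least precise estimate of the 10 members.

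Slc7a11, the transport subunit of the exchanger that brings in cystine for glutamate, was at 8.63, 8.99 and 8.49 in KO_female and 8.93, 8.93 and 8.90 in WT_female arrays. It was at 9.09, 9.18 and 8.69 in KO_male and 9.11, 9.03 and 9.35 in WT_male arrays. KO_female replicates 1 and 3 and KO_male replicate 3 lay below every control of their sex, and the other 3 knockout arrays did not. The difference was -0.20 (SE 0.10, 95% interval -0.42 to 0.03; limma adjusted p = 0.584). A dimmer Slc7a11 row, at percentile 9.96 of brightness, was not used.

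Aldh18a1, which starts proline synthesis from glutamate, was at 7.76 to 8.16 in KO_female and 7.93 to 8.14 in WT_female arrays, and at 7.92 to 8.23 in KO_male and 7.91 to 8.12 in WT_male arrays. The difference was -0.02 (SE 0.08, 95% interval -0.19 to 0.15; limma adjusted p = 0.961).

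Counted together, 0 of 10 members passed the adjusted threshold over both sexes, in females, in males or for the difference between the sexes. At an unadjusted p under 0.05, Psat1 alone was lower over both sexes (4.87% of all genes were lower), in females (3.98%) and in males (2.8%). The male count was lost with the oligodendrocyte covariate (unadjusted p = 0.051) and the astrocyte covariate (0.1), and without KO_male replicate 3 (0.0567) or WT_male replicate 3 (0.0698). Of the members, 0 were higher over both sexes (4.38% of all genes were), in females (4.52%) or in males (2.62%). No gene of the table passed for the difference between the sexes, where limma gave 1070 genes (4.82%) at an unadjusted p under 0.05 and 0 members. The median difference of the 10 members was -0.02 over both sexes, -0.09 in females and 0.03 in males, against a median of 0.00 over all genes in females. Over both sexes 6 of 10 members lay below 0 (50.4% of all genes did), in females 7 of 10 (49.4%), and in males 4 of 10 (51.9%). The female difference minus the male difference lay below 0 in 9 of 10 members (47.8% of all genes), with a median of -0.09. Members that vary together over the same arrays do not give independent signs, and this count was not tested.

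**Figure D2:**
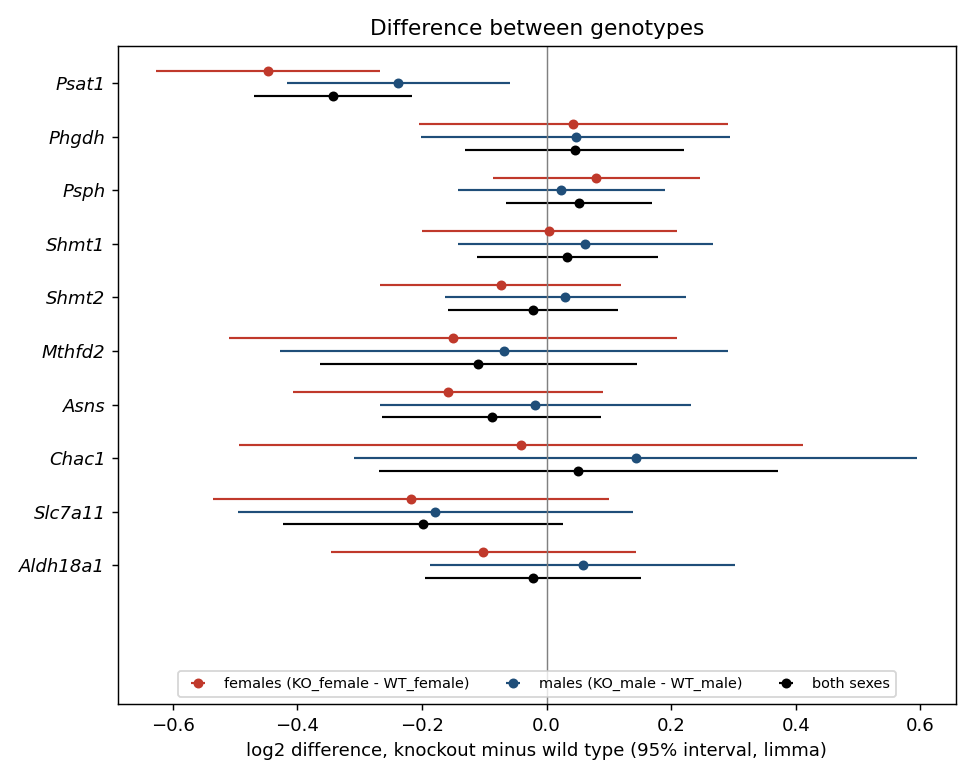
Log2 difference of each gene, knockout minus wild type, over both sexes, in females and in males, with 95% intervals from the limma fit; the vertical line marks 0. Psat1 is at -0.34 over both sexes and its 3 intervals stay below 0, and every interval of the other 9 genes over both sexes spans 0.

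Several members varied together across the 12 arrays. Of the 45 pairs of members, 14 passed 0.05 by Pearson's r over the 12 arrays and 8 by Spearman's rho, with permutation p-values adjusted over the 45 pairs. The permutations exchanged all 12 arrays without regard to genotype or sex, so differences between groups enter these p-values. For r within a genotype or centred on groups no p-value was computed. The closest pair was Mthfd2 and Asns, with r = 0.93 (adjusted permutation p = 0.00045) and rho = 0.87 (0.0121). Without the 2 arrays farthest from the median of Mthfd2, r was 0.97, and it was 0.85 within the 6 knockout arrays and 0.98 within the 6 wild-type arrays. Shmt2 and Mthfd2 reached r = 0.82 (0.012) and rho = 0.88, Asns and Aldh18a1 r = 0.84 (0.012) and rho = 0.79, and Mthfd2 and Chac1 r = 0.85 (0.0137) and rho = 0.77.

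Shmt2, Mthfd2, Asns, Chac1 and Aldh18a1, picked out after their values were seen, formed 10 pairs with r from 0.69 to 0.93 and rho from 0.70 to 0.88. After each group was centred on its own mean the r of these pairs was 0.70 to 0.95, so the shared pattern was also present inside the groups. In KO_female replicates 1 and 3, KO_male replicate 3, WT_female replicate 1 and WT_male replicate 1, all 5 genes were below their own means, by 0.15 to 0.20 on average. In KO_female replicate 2, KO_male replicates 1 and 2, WT_female replicate 2 and WT_male replicate 3, all 5 were above, by 0.04 to 0.22 on average. Every group therefore held arrays of both kinds. The 2 promoter motifs did not divide along this line. Of the genes with a TGATGNAA match, Asns and Chac1 belong to the 5 and Slc7a11 does not. Chac1 and Mthfd2 held 3 CCAAT matches each in their promoters, Asns held 0, and Shmt2 and Aldh18a1 held 0 of either motif.

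**Figure D3:**
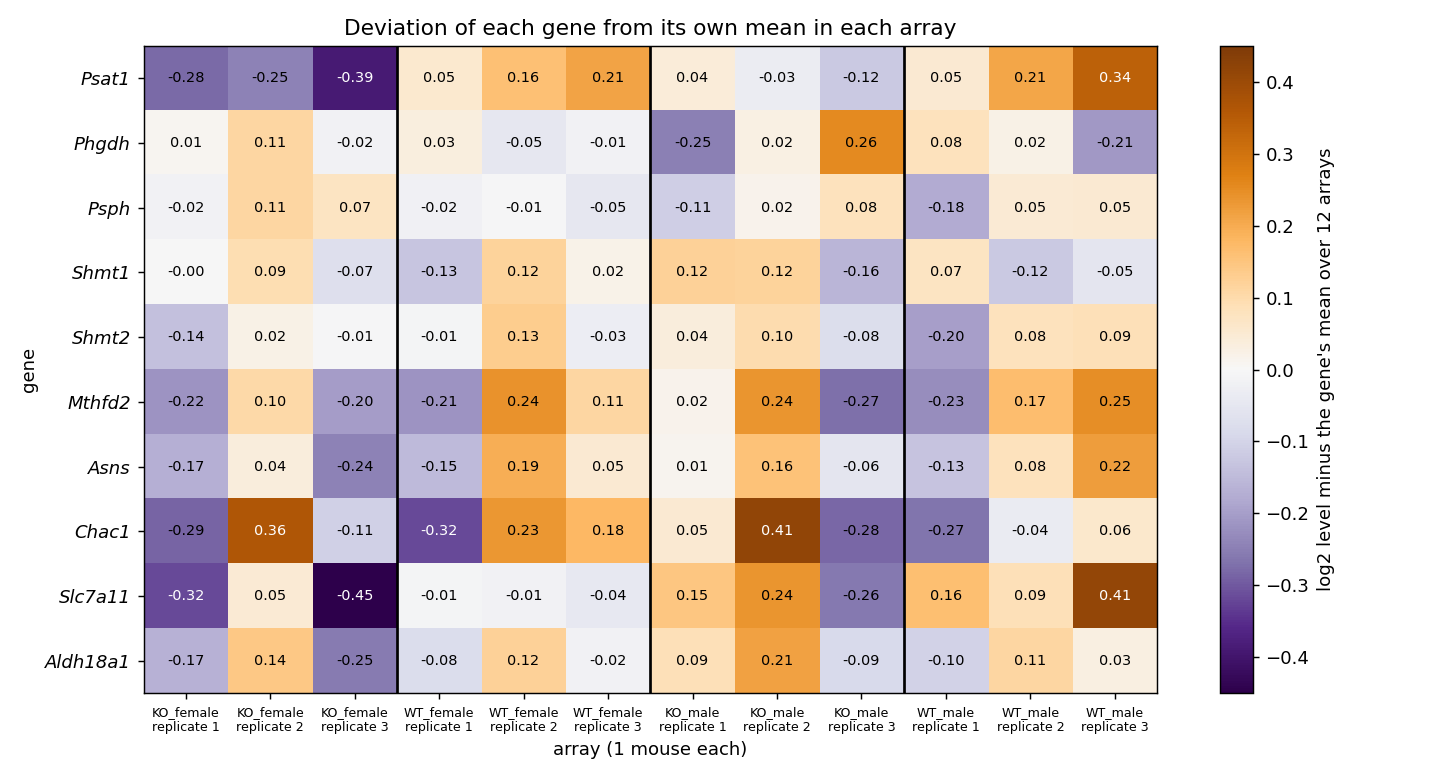
Deviation of each gene from its own mean over the 12 arrays, in log2 units, for every array, with KO_female, WT_female, KO_male and WT_male arrays side by side. Shmt2, Mthfd2, Asns, Chac1 and Aldh18a1 take the same colour in most columns, including both signs inside each group, while Psat1 is at -0.39 to -0.25 in KO_female arrays.

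Slc7a11 followed these genes in part, with r = 0.72 with Asns (adjusted permutation p = 0.0409; rho = 0.61, 0.136) and 0.70 with Aldh18a1 (0.0437; rho = 0.57, 0.177). With Aldh18a1 its r was 0.97 within knockout and -0.02 within wild type (n = 6 arrays each); that difference was not tested. Psat1 passed by r with Asns (0.69, adjusted permutation p = 0.0498) and with Slc7a11 (0.73, 0.0397), and did not pass by rho (0.69, 0.066, and 0.50, 0.257). Without the 2 arrays farthest from the Psat1 median those r were 0.42 and 0.43, so the size of both over all arrays leans on those 2. Inside the genotypes Psat1 and Asns had r = 0.76 in knockout and 0.86 in wild type, and Psat1 and Slc7a11 had 0.79 in knockout and 0.55 in wild type (n = 6 arrays each). Centred on the 4 groups, r of Psat1 was 0.79 with Asns and 0.60 with Slc7a11. It was also 0.77 with Mthfd2, 0.61 with Chac1, 0.58 with Aldh18a1 and 0.58 with Shmt2. With the remaining members it was 0.32 for Shmt1, 0.24 for Psph and -0.65 for Phgdh. Over the 12 arrays, uncentred, Phgdh, Psph and Shmt1 had 0 pairs that passed by r or by rho.

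**Figure D4:**
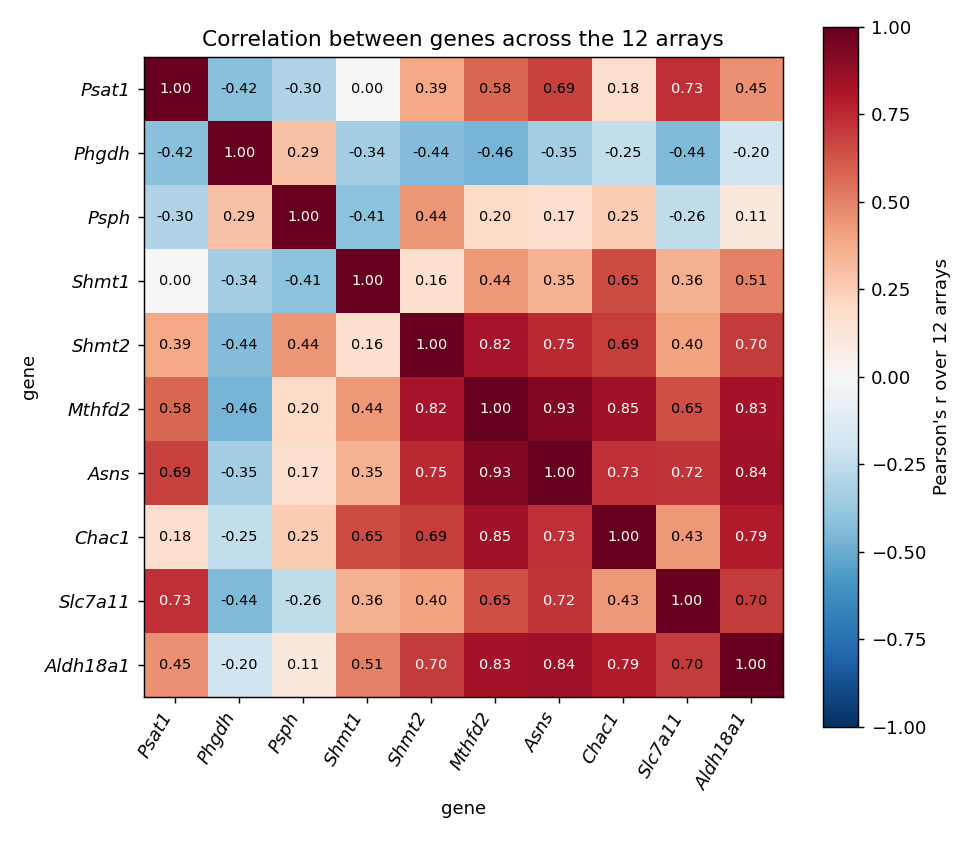
Pearson's r over the 12 arrays for each pair of the 10 genes, with both axes listing the genes and colour giving r. Mthfd2 and Asns reach 0.93, the pairs among Shmt2, Mthfd2, Asns, Chac1 and Aldh18a1 lie between 0.69 and 0.93, and the pairs of Phgdh lie between -0.46 and 0.29.

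Several other genes of the amino acid response followed Asns across arrays. Over all 22179 other genes, 301 (1.36%) had r above 0.7 with Asns across the 12 arrays, and of genes above the median brightness 221 of 11089 (1.99%) did. Among 25 integrated stress response factors and targets it was 6 (24%): the amino acid transporter genes Slc3a2 (r = 0.92), Slc7a1 (0.91) and Slc7a3 (0.88), the secreted Stc2 (0.75), the tRNA exporter Xpot (0.72) and the stress sensor Sesn2 (0.71). Among 17 cytosolic aminoacyl-tRNA synthetases, which charge tRNAs and are known Atf4 targets in part, it was 5 (29.4%): Cars and Iars (0.89 each), Gars and Nars (0.83 each) and Yars (0.78). Among 18 genes of serine and glycine use and transport it was 1 (5.6%), the serine and alanine transporter Slc1a4 (0.83). Among 20 folate and glycine cleavage genes it was 1 (5%), the mitochondrial folate enzyme Aldh1l2 (0.73). These shares describe 12 arrays, and genes are not independent of each other. Differences between arrays in RNA preparation or normalization were not tested.

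In the other lists, 0 of 11 eIF2 kinases and regulators, 0 of 16 glutathione and NRF2 genes and 0 of 17 endoplasmic reticulum folding genes reached r above 0.7 with Asns, and 1 of 4 proline genes did (Oat, 0.70). None did among 14 oligodendrocyte, 15 Bergmann glia and astrocyte, 11 microglia, 13 choroid plexus, 14 endothelial and meningeal, 12 granule cell and 10 interneuron markers. Of 8 Purkinje cell markers 1 did, Foxp2 (0.72). The endothelial and meningeal markers nevertheless had a median r of 0.49 with Asns, against 0.44 for the integrated stress response list, 0.48 for the tRNA synthetases and 0.01 over all genes. The part of these cells in the shared pattern was not tested. With each group centred on its own mean, 2 of 17 endoplasmic reticulum folding genes (11.8%) exceeded 0.7, Hspa5 (0.84) and Xbp1 (0.75), as did 2 of 8 Purkinje cell markers, Foxp2 (0.87) and Rgs8 (0.85), and 2.39% of all genes. The integrated stress response list then gave 8 of 25 and the tRNA synthetases 5 of 17. The choroid plexus markers averaged 6.41 to 7.54 in KO_female and 6.60 to 7.80 in WT_female arrays, and 6.55 to 7.33 in KO_male and 6.85 to 7.90 in WT_male arrays. Endothelial and meningeal markers averaged 7.98 to 8.31 in KO_female and 8.08 to 8.14 in WT_female arrays, and 7.99 to 8.28 in KO_male and 8.14 to 8.20 in WT_male arrays. The genes most like the mean of the 10 members were Eif3c (r = 0.93), Slc3a2 (0.92), Ebf1 (0.91), Chml (0.90) and Cdh10 (0.90), with r over 12 arrays and 11082 genes searched.

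Between genotypes, the upstream factors gave no adjusted call. Atf4 differed by 0.13 (SE 0.06; limma adjusted p = 0.571), Atf3, another stress-induced factor, by -0.20 (SE 0.08; 0.510) and Trib3, a brake on Atf4, by -0.12 (0.628). Ddit3, the factor CHOP, was at 8.23 to 8.63 in knockout arrays, with a median of 8.41, and at 8.05 to 8.29 in wild-type arrays, with a median of 8.24. Its difference was 0.24 (SE 0.05; limma adjusted p = 0.248). The eIF2 kinases Eif2ak3 and Eif2ak4 differed by 0.00 and -0.02. Sesn2 and Slc3a2, which tracked Asns, differed by -0.03 and -0.07.

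Over both sexes, 0 genes of the metabolic and stress lists passed the adjusted threshold. At an unadjusted p under 0.05, where 4.38% of all genes were higher and 4.87% lower, the 25 integrated stress response genes gave 1 higher and 2 lower. The 17 tRNA synthetases gave 0 higher and 1 lower, the 11 eIF2 kinases and regulators 0 and 1, the 20 folate and glycine cleavage genes 0 and 1, and the 4 proline genes 0 and 0. The 18 genes of serine and glycine use gave 1 and 2, among them Cbs, which joins serine to homocysteine, and Serinc2, of a family named for placing serine in membranes. Cbs differed by -0.18 (SE 0.05; limma adjusted p = 0.352), at 7.69 to 8.02 in knockout and 8.01 to 8.11 in wild-type arrays. Serinc2 differed by 0.20 (SE 0.04; limma adjusted p = 0.229), at 8.22 to 8.58 in knockout and 8.10 to 8.25 in wild-type arrays. Both genes overlapped between genotypes by less than 0.1 log2 units.

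Mthfd1, the cytosolic folate enzyme, differed by -0.10 (SE 0.04; limma adjusted p = 0.509), and its mitochondrial relative Mthfd1l by -0.02. The 16 glutathione and NRF2 genes gave 1 higher and 2 lower, with Gclc, the limiting enzyme of glutathione synthesis, at -0.10 (limma adjusted p = 0.472). The 17 endoplasmic reticulum folding genes gave 10 higher and 1 lower over both sexes. In females 12 of these 17 were higher at an unadjusted p under 0.05 (4.52% of all genes were), with a median difference of 0.22. In males 0 were (2.62% of all genes), with a median of 0.03. The female difference minus the male difference was above 0 at an unadjusted p under 0.05 in 8 of the 17. It passed the adjusted threshold in 0 of them (lowest limma adjusted p = 0.528). Sdf2l1, an endoplasmic reticulum chaperone cofactor, rose by 0.85 in females (SE 0.11; limma adjusted p = 0.0321), and differed by 0.01 in males. In the same female comparison Asns differed by -0.16, and 0 of the 10 members were higher at an unadjusted p under 0.05.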

How the data were processed

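Per the labels, the deposited values are RMA estimates made in Expression Console from core exons, and the submitters' processing notes add Transcriptome Analysis Console 3.0. Each deposited value is a linear intensity, and array medians were 96.5 to 98.7. The authors' genome build and test: not given in the sources used here, so neither is stated. The number of arrays limits the precision.

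Log2 of each intensity was taken without a pseudocount. Of 41345 rows, 23521 had 1 gene symbol in the platform annotation, 1814 several and 16010 none. The brightest row was used for each of the 1082 genes with several rows, which gave 22180 genes; 21994 matched RefSeq by gene ID. The extraction protocol describes separate animals. The test used limma 3.58.1 in R 4.3.3: 4 group means over 12 arrays, eBayes, two-sided, with Benjamini-Hochberg adjustment over all genes and a threshold of 0.05. It was tested on simulated data with known changes. Those data had independent noise for each gene, so they cannot speak to genes or arrays that vary together. Correlations used 100000 permutations; 1e-05 is the smallest p they can give.

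The members, and the 19 gene lists with 261 entries, were chosen with earlier results of these data known. Named were all members, genes of the lists past the threshold, the 3 of each list with the smallest p over both sexes and in females, listed genes of a stated role, and the 5 genes most like Psat1 and most like the members' mean; of these the text gives the ones that bear on the members. Genes named for r above 0.7 with Asns, and the 5 members grouped by their shared pattern, were chosen after their values were seen. Pycr1 had no row of its own and was not analysed here. Alternatives changed the pseudocount, spread model, filter, rows, normalization, weights, covariates and arrays.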

Additional observations from a re-analysis of the deposited data

How the results depend on the processing

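The Psat1 difference kept its sign in every alternative tried. It was -0.34 over both sexes and -0.45 in females both with an intensity trend in the prior spread (limma adjusted p = 0.0189 and 0.0253) and among genes above the median brightness (0.0239 and 0.0312), and these 4 values passed the threshold that the reported ones miss. With 1 array left out it was -0.38 to -0.31 over both sexes, -0.49 to -0.40 in females and -0.31 to -0.17 in males, never past the adjusted threshold. Of 852 values of members under the alternatives, 69 changed sign, none of them past the threshold, and 0 of 766 values of the other 9 members passed. Shmt1 and Mthfd2 lie below the median brightness and have no value under that filter. The counts of all genes past the threshold moved more. Over both sexes 5 genes became 18 with the trend, 14 above the median brightness, 3 with the choroid plexus covariate, 2 with the oligodendrocyte or the astrocyte covariate, and 3 to 8 with 1 array left out. In females 5 became 26 with the trend, 16 above the median brightness, 8 with a pseudocount of 16, 1 with the oligodendrocyte covariate, 3 with the astrocyte covariate, and 3 to 7 with 1 array left out. In males 5 became 2 with the oligodendrocyte covariate, 1 with the astrocyte covariate, 2 with only the 6 male arrays fitted, and 2 to 4 with 1 array left out. For the difference between the sexes 0 became 2 with the trend, 2 above the median brightness, 1 with the pseudocount, and 0 to 1 with 1 array left out. The cause was not tested. No paired analysis was possible because the labels give no replicate numbers that groups share.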

Other observations

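Slc7a3, a transporter of cationic amino acids, showed the pattern of Asns over a wider range than the members. Its log2 level was 5.60 to 6.85 in KO_female arrays and 5.67 to 7.01 in WT_female arrays, and 5.94 to 7.32 in KO_male arrays and 5.49 to 6.80 in WT_male arrays. It was chosen after its values were seen. Between Psat1 and Phgdh, r was -0.32 within knockout arrays and -0.87 within wild-type arrays, and with 6 arrays each the difference was not tested.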
